A study of Mus musculus with 48 samples.

Results

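The clustered protocadherin genes are 58 neighbouring genes on mouse chromosome 18, and their chromatin accessibility was followed here by ATAC-seq, which maps open chromatin by the insertions of the Tn5 transposase. The members are all RefSeq genes of the mm10 build on this chromosome whose symbol begins with Pcdha, Pcdhb or Pcdhg, 58 of 26180 genes annotated. They form 3 tandem clusters. The alpha cluster holds 14 genes between 36930285 and 37188897, the beta cluster 22 genes between 37264998 and 37521419, and the gamma cluster 22 genes between 37661775 and 37841873, one of which, *Pcdhgb8*, is annotated as a transcribed pseudogene. All peaks from 50 kb before to 50 kb after the clusters were taken, a window of 1012 kb, in which merging the 4 deposited peak lists left 93 of the 287329 regions of the genome.

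The study used P19 cells, a mouse embryonic teratoma line that makes its own NODAL and GDF3, to follow NODAL/Activin signalling through SMAD2. All cells were grown in medium with serum. In the SB-431542 state the type I receptors were blocked overnight with 10 µM SB-431542, and after washing the cells were put back into the inhibitor for 1 h. In the 1 h Activin and 8 h Activin states the same overnight block was washed out and 20 ng/ml Activin was given for 1 h or 8 h, and the untreated state, with no inhibitor and no added ligand, is that of chronic autocrine signalling. Each state had 2 biological replicates, whose alignments the authors merged before calling broad peaks, so there is 1 list per state and none of the differences between states below has a replicate check. In runs of values the states are shortened to SB, 1 h, 8 h and untreated cells. The lists held between 209212 peaks (8 h Activin) and 234758 peaks (SB-431542). The lowest local background in a list, which scales with depth, was 92.5% of the SB value at 1 h, 78.8% at 8 h and 84.8% in untreated cells. Promoters of 9 of 10 pluripotency genes, among them *Pou5f1*, *Sox2* and *Nanog*, had a peak in every list and *Dppa4* had one in all but 8 h Activin, whereas 3 of 9 genes of other cell types (*Myod1*, *Ptprc* and *Col2a1*) did.

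Clustered protocadherins are cadherin-like adhesion molecules best known from neurons, where each cell expresses its own combination of isoforms and uses homophilic recognition to tell its own branches from those of other cells. In the alpha and gamma clusters each gene is a large variable first exon with its own promoter, which is spliced to a short set of constant exons shared by the cluster, whereas each beta gene is a single exon. Most variable promoters carry a conserved sequence element with a CGCT core and are chosen stochastically, with the insulator protein CTCF and the cohesin ring looping a chosen promoter to distal enhancers. In the alpha cluster CTCF is known to bind both at the promoter and within the first exon. The 5 C-type genes, *Pcdhac1*, *Pcdhac2*, *Pcdhgc3*, *Pcdhgc4* and *Pcdhgc5*, lie at the ends of the alpha and gamma clusters and are expressed more uniformly among neurons than the other isoforms.

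The first question was which promoters of the clusters were open in P19 cells. A promoter was called open where any peak overlapped the stretch from 1000 bp before to 100 bp after the start site. By this measure 40 of the 58 members were open with SB-431542, against 68.6% of all RefSeq genes (95% Wilson interval 68.1 to 69.2%, for counting error only). With 1 h Activin 37 members had one, against 67.9% of all genes, with 8 h Activin 37, against 67.7%, and in untreated cells 40, against 68%. Taken as a whole, the clusters therefore held open promoters about as often as other genes did in each list. A peak was found in all 4 lists at 36 members, or 62.1%, against 65.2% of all genes. In no list was there a peak at 18 members, against 28.7% of all genes, and 4 members had a peak in some lists and not in others, against 6.12%.

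The 3 clusters differed widely in this share. Of the 22 beta promoters, 21 in SB, 20 at 1 h, 21 at 8 h and 21 in untreated cells had a peak, and *Pcdhb5* was the single beta gene with none. Of the 14 alpha promoters 8 in SB, 7 at 1 h, 7 at 8 h and 8 in untreated cells had one, and of the 22 gamma promoters 11 in SB, 10 at 1 h, 9 at 8 h and 11 in untreated cells. The promoters of all 5 C-type genes had a peak in every list. Among the 12 alternate alpha genes, *Pcdha1*, *Pcdha3*, *Pcdha4*, *Pcdha10* and *Pcdha12* had a promoter peak in every list, while the run from *Pcdha5* to *Pcdha9* and *Pcdha11* had none in any. The peaks of *Pcdha1* and *Pcdha10* were weak, as given below. The gamma cluster was divided by gene type. Of the 12 gamma-A genes only *Pcdhga2* and *Pcdhga3*, which are neighbours near the start of the cluster, had a promoter peak, and both had it in every list. Of the 7 gamma-B genes, which are interspersed among them, 6 had a peak in at least 1 list and 4 had it in all, namely *Pcdhgb1*, *Pcdhgb4*, *Pcdhgb7* and *Pcdhgb8*. The gamma-B gene without a peak was *Pcdhgb6*.

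**Figure D1:**
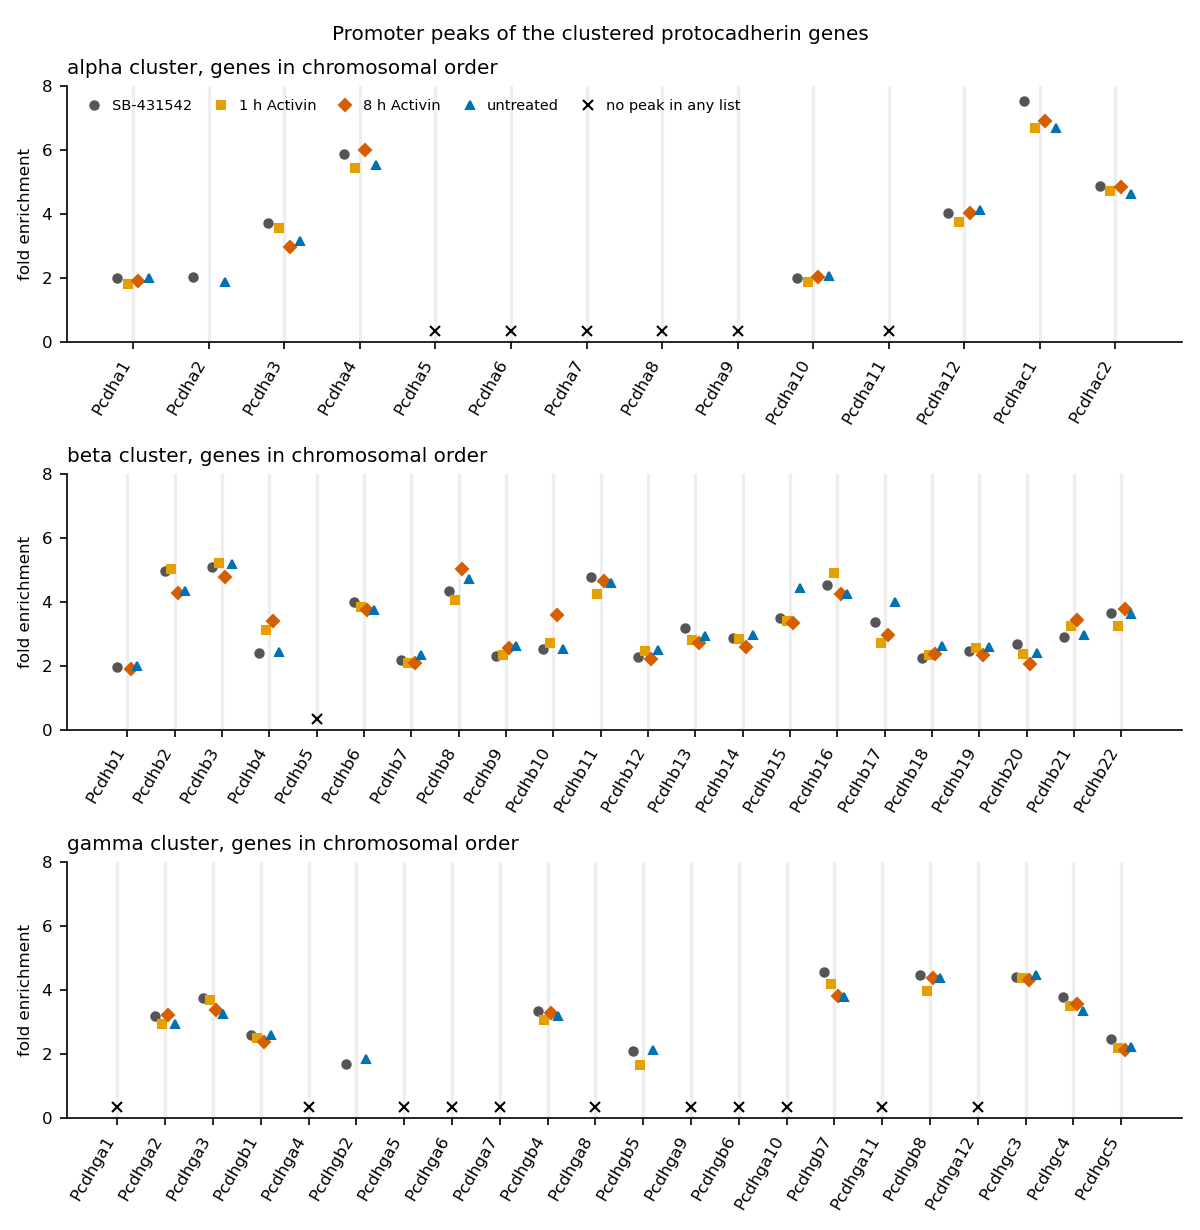
Fold enrichment of the strongest peak in the promoter window of each of the 58 members, in chromosomal order within the alpha, beta and gamma clusters, with 1 point per peak list and a cross for members with no peak in any list. Beta promoters are open at 21 of 22 genes in 3 of the lists, while 10 of 12 gamma-A genes and 6 of the 12 alternate alpha genes carry crosses, and the highest points belong to *Pcdhac1*.

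The level of each open promoter is given as the fold enrichment in the authors' lists, the ratio of the mean pileup over the peak to the local background of the same merged sample. It is a mean over the width of the peak, so a change in the called width moves it too. The highest level in every list was that of *Pcdhac1*, a C-type gene of the alpha cluster, with fold enrichments of 7.52 in SB, 6.67 at 1 h, 6.91 at 8 h and 6.68 in untreated cells. Among the regions open in all lists this promoter stood at percentile 98.8 in SB, 98.3 at 1 h, 97.9 at 8 h and 98.1 in untreated cells. *Pcdha4* came next in the cluster with 5.88 in SB, 5.44 at 1 h, 5.99 at 8 h and 5.52 in untreated cells. By fold enrichment this alternate isoform was above the other C-type gene of the cluster, *Pcdhac2*. That gene had 4.88 in SB, 4.73 at 1 h, 4.85 at 8 h and 4.62 in untreated cells, over a higher local background. The mean pileup of *Pcdhac2*, estimated from the values given for each peak, was above that of *Pcdha4* in every list, at 418 against 242 in SB. At the other end, *Pcdha1* had 2.00 in SB, 1.81 at 1 h, 1.90 at 8 h and 2.01 in untreated cells and *Pcdha10* had 2.02 in SB, 1.87 at 1 h, 2.02 at 8 h and 2.06 in untreated cells. The remaining alternate genes with a peak in every list, *Pcdha3* and *Pcdha12*, lay between *Pcdha4* and this pair in all 4 lists.

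In the beta cluster levels ran from *Pcdhb1* at 1.97 (SB-431542), 1.92 (8 h Activin) and 2.02 (untreated) to *Pcdhb3* at 5.09 in SB, 5.21 at 1 h, 4.80 at 8 h and 5.19 in untreated cells. The lowest beta promoter of the 1 h Activin list was *Pcdhb7*, at 2.10, and the highest of the 8 h Activin list was *Pcdhb8*, at 5.04. In the gamma cluster *Pcdhgb7* was highest with SB-431542, at 4.57, and had 4.21 at 1 h, 3.83 at 8 h and 3.78 in untreated cells. *Pcdhgc3* had 4.41 in SB, 4.39 at 1 h, 4.33 at 8 h and 4.47 in untreated cells and was the highest gamma gene with 1 h Activin and in untreated cells. The pseudogene *Pcdhgb8*, at 4.47 in SB, 3.97 at 1 h, 4.38 at 8 h and 4.40 in untreated cells, was the highest with 8 h Activin. Of the other gamma C-type genes, *Pcdhgc4* had 3.80 in SB, 3.50 at 1 h, 3.57 at 8 h and 3.36 in untreated cells over an unusually wide peak of 2025 to 2151 bp, and *Pcdhgc5* had 2.47 in SB, 2.19 at 1 h, 2.15 at 8 h and 2.24 in untreated cells. By fold enrichment, being C-type therefore did not go with one level, since *Pcdhac1* was the highest member of all and *Pcdhgc5* the lowest gamma member of the 8 h Activin list. The local background also differed, estimated with SB-431542 at 53.5 for *Pcdhac1* and 115 for *Pcdhgc5*. By estimated mean pileup with SB-431542 all 5 C-type genes, at 286 to 418, stood above every other member, with *Pcdha4* next at 242. With 8 h Activin *Pcdhgc5*, at 159, was below *Pcdha4*, at 180.

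As a group, open protocadherin promoters were weaker and narrower than open promoters elsewhere. Their median fold enrichment was 3.29 in SB, 3.24 at 1 h, 3.40 at 8 h and 3.08 in untreated cells, against 4.45 in SB, 4.29 at 1 h, 4.24 at 8 h and 4.13 in untreated cells for all open RefSeq promoters. In the SB-431542 list their peaks had a median width of 686 bp, against 1402 bp for all promoter regions of the genome. By cluster, the median fold enrichments were 3.88 in SB, 3.76 at 1 h, 4.03 at 8 h and 3.66 in untreated cells for alpha, 2.93 in SB, 3.00 at 1 h, 3.36 at 8 h and 2.96 in untreated cells for beta and 3.36 in SB, 3.29 at 1 h, 3.40 at 8 h and 3.19 in untreated cells for gamma genes. The beta cluster thus had the most open promoters and, in every list, the lowest median level among them. The 12 non-clustered protocadherins, single genes elsewhere in the genome, had a promoter peak in every list, as did 65.2% of all RefSeq genes. Their medians were 3.09 in SB, 3.06 at 1 h, 3.07 at 8 h and 3.23 in untreated cells. The ranking of the members among themselves was nearly the same in each list, with Spearman coefficients of 0.91 to 0.97 between pairs of lists over 36 to 40 members. All these points come from the same cells and genome, and the coefficients are a description.

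Most open protocadherin promoters were centred not before but just after their start site. The median distance of the peak centre from the start site downstream, in bp, was 122.5 in SB, 128 at 1 h, 128 at 8 h and 145.5 in untreated cells. Members whose start site itself lay inside a peak numbered 39 in SB, 35 at 1 h, 35 at 8 h and 39 in untreated cells, against a share of all genes of 64.6% in SB, 64% at 1 h, 63.8% at 8 h and 64% in untreated cells. When the centre of a peak, rather than any base of it, had to lie in the promoter window, the members counted were 17 in SB, 15 at 1 h, 12 at 8 h and 15 in untreated cells, against a share of all genes of 40.7% in SB, 40.5% at 1 h, 39.9% at 8 h and 40.8% in untreated cells. Alpha promoters were centred farthest into the exon, at a median of 225.5 bp with SB-431542, and beta and gamma promoters at 121 and 109 bp. *Pcdhac1*, *Pcdhb13*, *Pcdhgb8* and *Pcdhgc4* were exceptions in every list, with centres at -271 to -150 bp from the start site. The annotated transcripts of *Pcdha1*, *Pcdha8*, *Pcdha9*, *Pcdha10*, *Pcdha11*, *Pcdha12*, *Pcdhac1*, *Pcdhb1* and *Pcdhb8* begin at the start codon. For these genes, distances and promoter windows are counted from that codon, and where transcription starts was not measured.

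The 4 members with a promoter peak in some lists only were all weak where they had one. *Pcdha2* had fold enrichments of 1.87 in untreated cells and 2.03 with SB-431542, and with 1 h Activin a 200 bp peak lay just past the window, centred 205 bp downstream of the start site. *Pcdhgb2* also had peaks in these lists alone, at 1.85 in untreated cells and 1.70 with SB-431542. *Pcdhb1*, whose annotated transcript begins at the start codon, was without a peak in the 1 h Activin list. *Pcdhgb5* had 2.12 with SB-431542, 1.68 with 1 h Activin and 2.13 in untreated cells and no peak with 8 h Activin. The -log10 q of these peaks, the corrected p of the peak caller on a log scale on which stronger peaks have higher values, was between 1.94 and 6.07, against a median of 17.4 to 23.4 for open members in the same lists. With lists of 78.8 to 92.5% of the depth of SB-431542, a missing peak at this level cannot be told apart from a peak just under the authors' threshold. The peaks of *Pcdha1* and *Pcdha10*, present in every list, were also this weak, with -log10 q of 3.03 to 5.04 and 3.40 to 5.12. With a -log10 q of at least 5, open alpha promoters numbered 8 in SB, 5 at 1 h, 5 at 8 h and 5 in untreated cells. The share of all genes was then 65.5% in SB, 64.1% at 1 h, 63.9% at 8 h and 64.2% in untreated cells. No member gained a promoter peak against SB-431542 in any signalling state, as did 1.01% of all genes at 1 h, 1.37% at 8 h and 1.52% in untreated cells. The members with a peak in SB-431542 and none in the signalling state numbered 3 at 1 h, 3 at 8 h and 0 in untreated cells, against 1.69%, 2.28% and 2.17% of all genes in these states.

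Some members without a promoter peak were nevertheless open a little farther into the exon. *Pcdha7* had a peak centred 460 to 551 bp downstream of its start site in all 4 lists, with fold enrichments of 2.61 in SB, 2.34 at 1 h, 2.70 at 8 h and 2.46 in untreated cells. *Pcdha6* and *Pcdha8* had such a peak in all lists but the untreated one, at 2.10 in SB, 2.26 at 1 h and 2.20 at 8 h for *Pcdha6*. The peaks of *Pcdha8* were at 2.08 in SB, 2.47 at 1 h and 2.36 at 8 h. *Pcdhga12* had a weak one with 8 h Activin and in untreated cells, at 1.95 with 8 h Activin and 2.06 in untreated cells. With a window of 500 bp to each side of the start site, the members with a peak numbered 43 in SB, 41 at 1 h, 41 at 8 h and 42 in untreated cells, against a share of all genes of 69.1% in SB, 68.5% at 1 h, 68.1% at 8 h and 68.2% in untreated cells. The alpha genes among them numbered 11 in SB, 11 at 1 h, 10 at 8 h and 9 in untreated cells. The stretch from *Pcdha5* to *Pcdha9* thus had no promoter peak but a peak inside 3 of its 5 first exons, and only *Pcdha5* and *Pcdha9* had neither in any list.

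The beta genes showed a second kind of open site, deep in the exon. A peak centred more than 500 bp downstream of the start site and still within the exon was found in part of the 22 beta genes, numbering 10 in SB, 11 at 1 h, 12 at 8 h and 11 in untreated cells. Outside the clusters, among 409 coding genes with a first exon of at least 2000 bp, the share with such a peak was 27.4% in SB, 26.7% at 1 h, 26.2% at 8 h and 27.1% in untreated cells. In all 4 lists it was present at 10 beta genes, or 45.5%, against 19.6% of those 409, whose first exons were shorter, with a median of 2894 bp. The 10 genes were *Pcdhb3*, *Pcdhb8*, *Pcdhb10*, *Pcdhb12*, *Pcdhb13*, *Pcdhb14*, *Pcdhb15*, *Pcdhb18*, *Pcdhb20* and *Pcdhb21*, and *Pcdhb17* had one in every list except SB-431542. In the alpha cluster *Pcdhac1* alone (7.14% of its genes), and in the gamma cluster *Pcdhga8* alone (4.55%), had one in all lists. Over all 58 members the share was 20.7%, close to that of the 409 genes. Apart from a single peak of *Pcdhb10* described below, the second peaks of the beta genes lay 1900 to 2368 bp from the start site, a narrow range for genes with exons of a median of 3418 bp.

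At several beta genes this inner site was stronger than the promoter. *Pcdhb14* had fold enrichments of 6.71 in SB, 6.82 at 1 h, 6.24 at 8 h and 5.73 in untreated cells there, against 2.87 in SB, 2.86 at 1 h, 2.59 at 8 h and 2.96 in untreated cells at its promoter, and it was the highest level of any site in the beta cluster. *Pcdhb10* had 5.55 in SB, 4.99 at 1 h and 5.02 in untreated cells, against 2.55 in SB, 2.73 at 1 h and 2.54 in untreated cells at its promoter. With 8 h Activin the list had a single *Pcdhb10* peak of 2735 bp that ran from the promoter over the inner site, with a fold enrichment of 3.62. At *Pcdhb3* both sites were strong, the inner one at 5.74 in SB, 4.92 at 1 h, 5.01 at 8 h and 4.92 in untreated cells and the promoter at 5.09 in SB, 5.21 at 1 h, 4.80 at 8 h and 5.19 in untreated cells. The inner sites of *Pcdhb12*, at 1.81 in SB, 2.04 at 1 h, 1.77 at 8 h and 2.08 in untreated cells, were among the weakest. Of the 18 open regions in first exons of all 3 clusters that were not part of a promoter region, 17 were centred in coding sequence and the other, that of *Pcdhga12*, in the 5′ untranslated part. Only that of *Pcdhb3* included the end of the coding sequence.

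**Figure D2:**
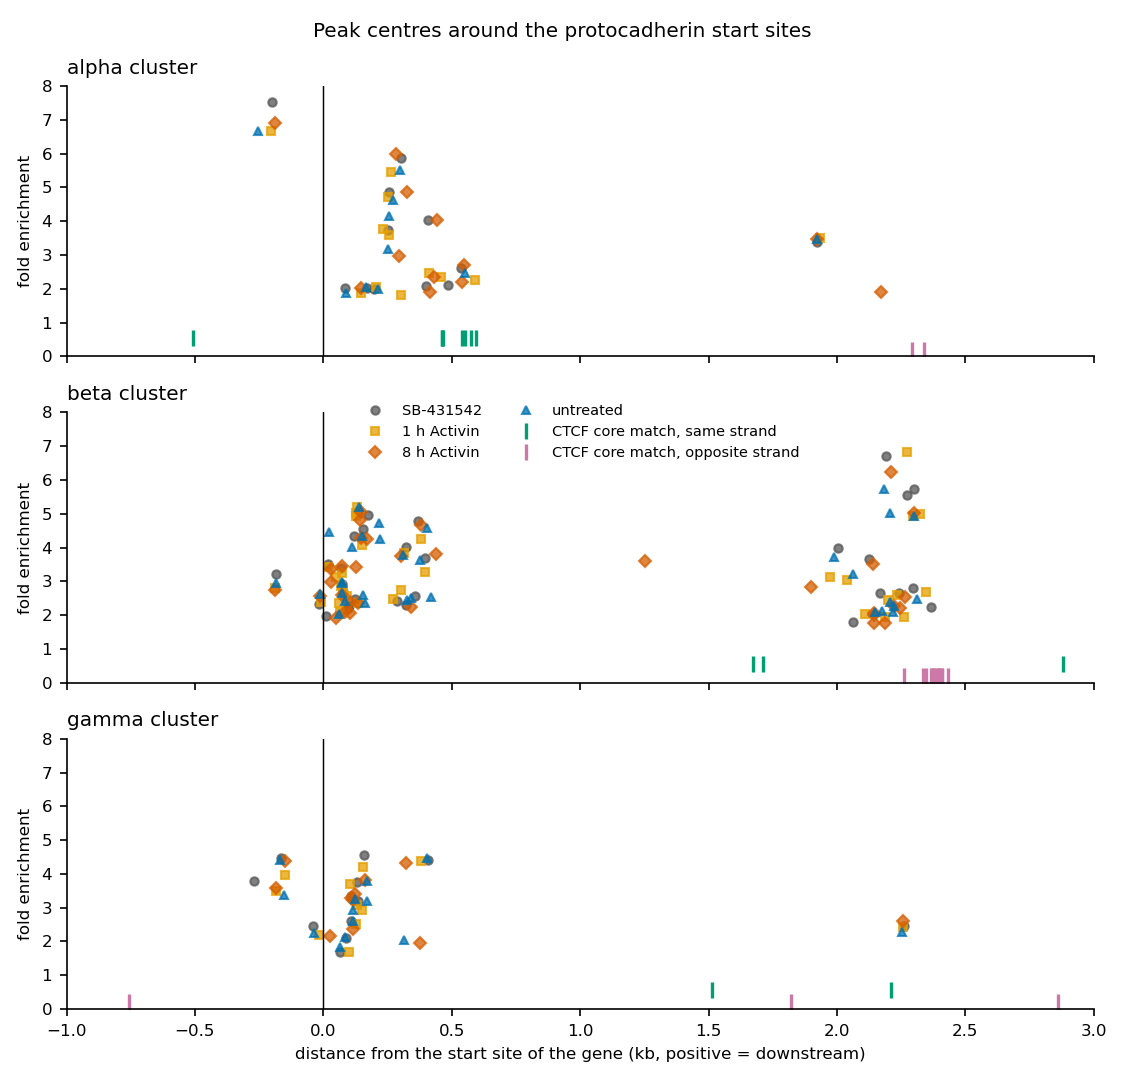
Fold enrichment of every peak near a member against the distance of its centre from the start site of the gene in kb, with a panel per cluster and a colour per list. The short vertical marks at the foot of each panel show matches to a CTCF core motif on the strand of the gene or on the opposite strand. Peaks gather within 0.5 kb of the start site in all clusters and, in the beta cluster, again at 1.9 to 2.4 kb, next to a row of matches on the opposite strand.

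The sequence around the start sites, read from the mm10 genome, was compared with that of all RefSeq start sites over the 300 bp from 250 bp before to 50 bp after. Protocadherin promoters were poor in GC, with a median of 41.2%, against 55.7% for all start sites. The C-type genes ranged from 47.3 to 65.7%, with *Pcdhac1*, *Pcdhac2* and *Pcdhgc3* above the median of all start sites and *Pcdhgc4* and *Pcdhgc5* below it. The CpG ratio, the observed over the expected frequency of CG, had a median of 0.689 in the alpha, 0.419 in the beta and 0.612 in the gamma cluster, against 0.514 for all start sites, so that the beta cluster lay below it and the other 2 above. The letters CGCT, which form the core of the conserved promoter element, occurred on either strand in 57 of 58 members (98.3%), against 68.1% of 31643 start sites. So short a match does not identify the element, which was not searched as a whole, and the members are related copies. The TATA motif TATAAA, also searched on both strands, occurred in 9 members, or 15.5%, against 12.3%. Neither GC content nor the CpG ratio followed the level of the open promoters closely, with Spearman coefficients of 0.18 to 0.27 over 37 to 40 members.

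A short core of the CTCF motif, which reads CCA, NN, AG, NN and GGC without a break, N being any base, was searched on both strands. A match whose bases after AG are CG also holds CGCT, on the other strand. None of the 58 promoters held it in that window, against 2.46% of all start sites. No match says only that these letters are absent from the window. In the first exons, by contrast, matches fell at the same place in gene after gene. In the alpha cluster 7 of 14 genes (*Pcdha1*, *Pcdha4*, *Pcdha6*, *Pcdha7*, *Pcdha8*, *Pcdha9* and *Pcdha12*) had a match on the strand of the gene 462 to 593 bp downstream of the start site, within coding sequence and 1892 to 1931 bp before the end of the coding part of that exon. Between 400 and 700 bp downstream, 50% of alpha genes and 0.821% of 26182 start sites of other coding genes had a match on that strand. In the beta cluster 14 of 22 genes had a match on the opposite strand 2260 to 2433 bp downstream, all in coding sequence and 115 to 196 bp before its end. Between 2200 and 2500 bp downstream, 63.6% of beta genes and 1.12% of the other start sites had a match on the opposite strand. Both stretches were chosen after the matches had been seen, and the genes of a cluster are related copies, so their matches are not separate events.

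The open sites inside the exons lay partly on these matches. In the alpha cluster a peak covered the match in all 4 lists at *Pcdha1*, *Pcdha4*, *Pcdha7* and *Pcdha12*, and in 3 lists at *Pcdha6* and *Pcdha8*, while *Pcdha9* had a match and no peak. The inner open sites of *Pcdha6*, *Pcdha7* and *Pcdha8*, which had no promoter peak, thus all contained one. In the beta cluster the match was under a peak in all 4 lists at 7 genes, *Pcdhb3*, *Pcdhb10*, *Pcdhb13*, *Pcdhb14*, *Pcdhb15*, *Pcdhb20* and *Pcdhb21*, and in no list at the other 7, *Pcdhb4*, *Pcdhb5*, *Pcdhb11*, *Pcdhb12*, *Pcdhb16*, *Pcdhb17* and *Pcdhb22*. The inner sites of *Pcdhb8* and *Pcdhb18* were open in every list without such a match. In the central 300 bp of the 18 first-exon regions, 6 (33.3%) held the motif, against 4.46% of all regions of the genome and 2.5% of the 40 member promoter regions. This count leaves out matches farther from the centre. Such matches lay in the promoter regions of *Pcdha1*, *Pcdha4*, *Pcdhac2* and *Pcdhb10* and in the first-exon regions of *Pcdhb13*, *Pcdhb14* and *Pcdhb21*. A match is a stretch of letters, and whether CTCF was bound there in these cells was not measured.

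The second question was whether signalling changed the accessibility of the clusters. For regions with a peak in all 4 lists, the highest fold enrichment was turned into a percentile among all such regions of that list, and the percentile with SB-431542 was subtracted from that in each signalling state. A difference of more than 10 points was counted. Of the 36 member promoter regions compared, 3 were higher and 0 lower with 1 h Activin, against 3.44% and 2.67% of all shared promoter regions. With 8 h Activin 3 were higher and 5 lower, against 3.95% and 6.96%, and in the untreated state 4 moved higher and 0 lower, against 4.3% and 7.81%. The median shift of the member promoters was 0.59 points at 1 h, -1.55 at 8 h and 1.26 in untreated cells, against 1.24 at 1 h, -0.78 at 8 h and -0.62 in untreated cells for all promoter regions. Over all shared regions of the genome the shares higher and lower were 11.3% and 12.1% with 1 h Activin. They were 18.7% and 18.5% with 8 h Activin and 19.9% and 18.8% in untreated cells. With SB-431542 the median percentile was 71.7 for the member promoters and 83.2 for all promoter regions, so the 2 sets started at different ranks. With 1 list per state the counts of shifted member promoters have no test.

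The larger shifts were nearly all at beta genes, which made up 20 of the 36 regions compared. With SB-431542 the median percentile was 65.9 for beta, 78.5 for alpha and 74.4 for gamma promoters. Beta promoters thus had more room to rise, and whether this bears on the shifts was not tested. *Pcdhb4* had the largest, with fold enrichments of 3.13 with 1 h Activin and 3.43 with 8 h Activin, against 2.41 with SB-431542, which put its region higher by 26.7 and 29.3 points, whereas untreated cells, at 2.45, were higher by 2.7 points. The called peak was narrower where the level was high, at 481 and 670 bp with 1 h and 8 h Activin, against 956 bp with SB-431542 and 1036 bp in untreated cells. *Pcdhb21* had a similar course with an almost constant width of 448 to 463 bp, at 3.24 with 1 h Activin, 3.45 with 8 h Activin and 2.98 in untreated cells, against 2.93 with SB-431542, and was higher by 12.7, 13.3 and 3.5 points. *Pcdhb12* was higher by 12.7 points with 1 h Activin, at 2.46, against 2.30 with SB-431542. At both *Pcdhb4* and *Pcdhb21* the Activin lists lay above the SB-431542 and the untreated lists, which were close to each other.

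A different set of beta promoters was higher in untreated cells. *Pcdhb15* had 4.46 in untreated cells, against 3.52 with SB-431542, and was higher by 16.2 points, while both Activin lists were close to SB-431542, at 3.41 with 1 h Activin and 3.36 with 8 h Activin. *Pcdhb17* had 4.01 in untreated cells, against 3.39 with SB-431542, and was higher by 13.2 points, although both Activin lists were lower than SB-431542, at 2.74 with 1 h Activin and 2.97 with 8 h Activin. *Pcdhb18*, at 2.64 in untreated cells against 2.26 with SB-431542, was higher by 15.8 points. *Pcdhb9* was higher both with 8 h Activin, at 2.57, and in untreated cells, at 2.63, against 2.33 with SB-431542, by 10.5 and 12.5 points. *Pcdhb15*, *Pcdhb17* and *Pcdhb18* are close neighbours, with *Pcdhb16* between the first 2, but *Pcdhb16* itself, at 4.26 in untreated cells against 4.54 with SB-431542, was lower by 0.5 points.

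Among member promoters, ranks lower by more than 10 points were found with 8 h Activin alone. *Pcdhb20* had 2.07 with 8 h Activin, against 2.69 with SB-431542, and was lower by 24.6 points, with 2.38 for 1 h Activin and 2.43 for untreated cells in between. *Pcdha3*, at 2.98 with 8 h Activin against 3.74 with SB-431542, was lower by 13.5 points. *Pcdhgc5*, at 2.15 with 8 h Activin against 2.47 with SB-431542, was lower by 13.2 points. *Pcdhb13*, at 2.74 with 8 h Activin against 3.21 with SB-431542, was lower by 10.3 points. *Pcdhb10* was lower by 19.1 points, but its region joins the promoter with the stronger inner site, and its promoter peak and inner peak were called as 1 wide peak in that list. No alpha promoter other than that of *Pcdha3* and no gamma promoter other than that of *Pcdhgc5* moved by more than 10 points in any state. A promoter near the top, such as *Pcdhac1* at percentile 98.8 with SB-431542, has no room to rise that far. A steady rank is also not a steady signal. In untreated cells *Pcdhac2* shifted by 0.2 points, while its estimated mean pileup differed from SB-431542 by -0.47 on the log2 scale, relative to the median of all shared regions. Of the 15 shifts of more than 10 points at member promoters, 7 were no longer past 10 points when regions were ranked by the estimated mean pileup, solved from the fold enrichment and the -log10 p of each peak, in place of the fold enrichment. These were *Pcdhb12* with 1 h Activin (8.93 points), *Pcdhb9* (9.14), *Pcdhb10* (-9.21), *Pcdhb13* (-8.07), *Pcdha3* (-9.84) and *Pcdhgc5* (-6.42) with 8 h Activin, and *Pcdhb17* in untreated cells (9.98). With a -log10 q of at least 5, *Pcdha3* in untreated cells (-13.4 points) and *Pcdhb17* with 1 h Activin (-14.9) and 8 h Activin (-11.9) also passed 10 points.

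**Figure D3:**
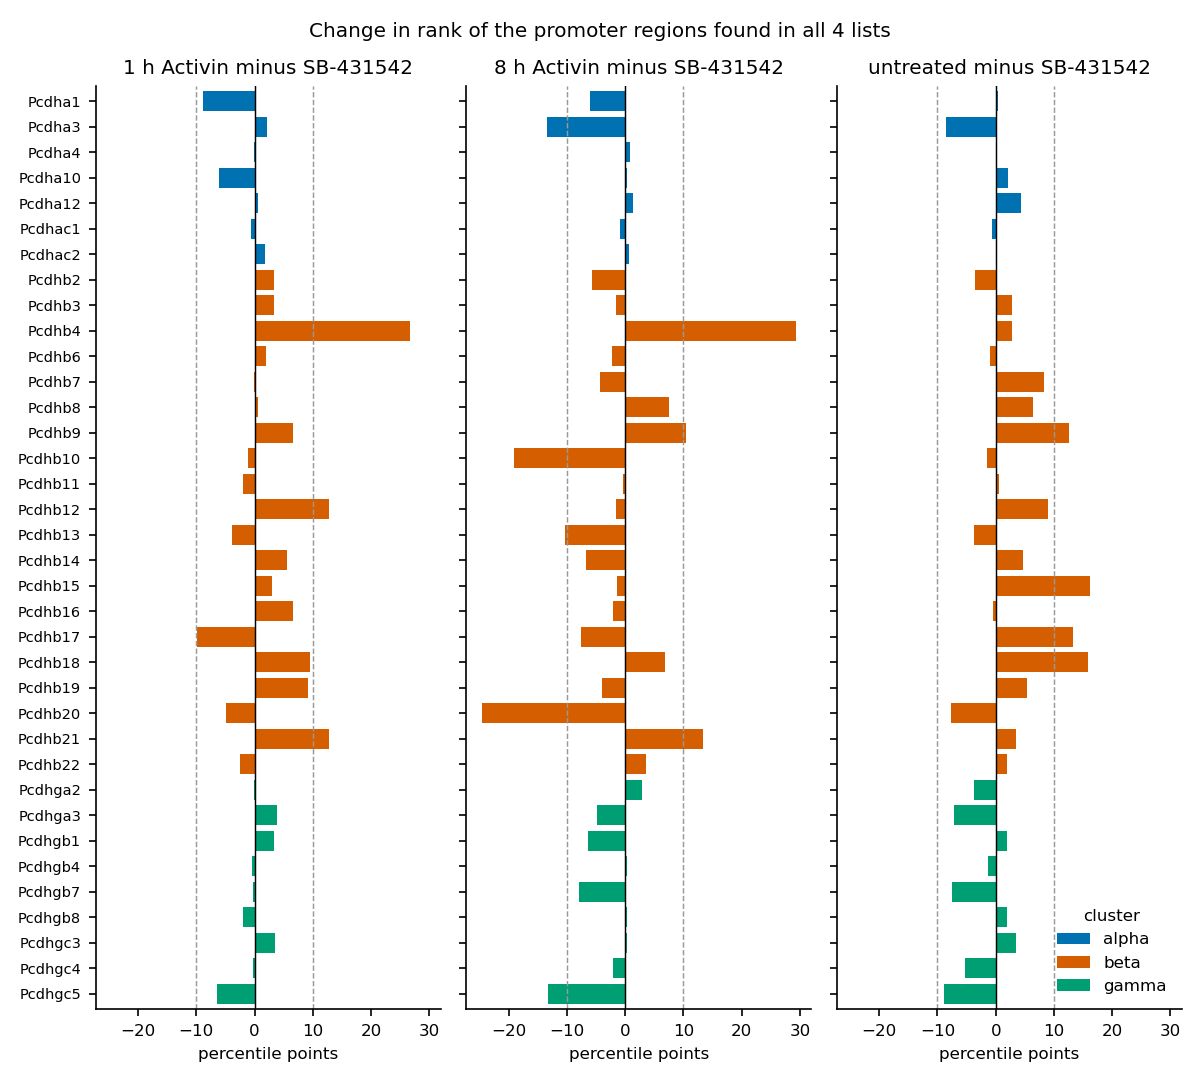
Percentile of each of the 36 member promoter regions with 1 h Activin, 8 h Activin or no treatment minus its percentile with SB-431542, in percentile points, with bars coloured by cluster and dashed lines at 10 points on each side of 0. Beta genes carry most bars past the lines, *Pcdhb4* reaches 26.7 and 29.3 points with Activin, and alpha and gamma genes pass them only at *Pcdha3* and *Pcdhgc5* with 8 h Activin.

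Among the inner exon sites, the share lower in rank was above that over the genome with 1 h and with 8 h Activin. The share lower in untreated cells and the shares higher in every state were below it, and all rest on few regions. Of the 12 first-exon regions in all lists, 1 was higher and 2 lower by more than 10 points with 1 h Activin, 0 and 4 with 8 h Activin and 1 and 1 in untreated cells. Of all 69 shared regions of the window, 7 were higher and 2 lower with 1 h Activin, 7 higher and 10 lower with 8 h Activin and 11 higher and 5 lower in untreated cells. Over the genome, the shares of shared regions that were higher and lower were 11.3% and 12.1% with 1 h Activin, 18.7% and 18.5% with 8 h Activin, and 19.9% and 18.8% in untreated cells. The inner site of *Pcdhb8* was lower by 10.1 points with 1 h Activin and 21.0 points with 8 h Activin, at 3.14 with 1 h and 2.84 with 8 h Activin, against 3.99 with SB-431542, while its promoter was higher by 0.7 and 7.6 points. At *Pcdhb15* the sites also moved apart, the inner one being lower by 23.3 points in untreated cells, at 2.09, against 2.67 with SB-431542. At *Pcdhb12* they moved together, the inner site being higher by 18.1 points with 1 h Activin, at 2.04, against 1.81 with SB-431542. The inner site of *Pcdhb21* was lower by 11.0 points with 1 h Activin, at 1.95, against 2.23 with SB-431542, and by 11.4 points with 8 h Activin, at 2.01. These are the states in which its promoter was higher. Its called peak was 380 bp wide with 1 h Activin and 690 bp with 8 h Activin, against 228 bp with SB-431542, and its estimated mean pileup differed from that with SB-431542 by -0.08 with 1 h and 0.003 with 8 h Activin on the log2 scale, relative to the median of all shared regions.

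Outside promoters and first exons, the window held 35 open regions, 21 of them in all 4 lists. Several of these were stronger than nearly all protocadherin promoters. In the alpha cluster a region at chr18:37172191-37172955, between the constant exons, had fold enrichments of 5.87 in SB, 5.93 at 1 h, 5.42 at 8 h and 5.42 in untreated cells, and a wide region, of up to 2842 bp, at chr18:37177839-37180680 next to it had 4.41 in SB, 4.11 at 1 h, 3.99 at 8 h and 3.45 in untreated cells. Between the alpha and beta clusters, a region at chr18:37217102-37218573 had 5.77 in SB, 5.54 at 1 h, 5.64 at 8 h and 5.53 in untreated cells. Between the beta and gamma clusters, a region at chr18:37655229-37656423, centred at -5949 bp from the start site of *Pcdhga1*, had 7.66 in SB, 6.90 at 1 h, 8.08 at 8 h and 7.41 in untreated cells, although *Pcdhga1* itself had no promoter peak. Past the gamma cluster, a region within the gene *Diaph1*, at chr18:37851688-37852679, had 6.50 in SB, 6.41 at 1 h, 7.46 at 8 h and 9.39 in untreated cells, the highest value of the window in the untreated list. Within the gamma cluster, a region over the first constant exon, one between the constant exons and one over the last of them were open in every list. The first had 3.03 in SB, 2.95 at 1 h, 3.18 at 8 h and 2.76 in untreated cells, the next 3.47 in SB, 3.07 at 1 h, 3.36 at 8 h and 3.21 in untreated cells, and the last 3.03 in SB, 3.19 at 1 h, 3.26 at 8 h and 3.18 in untreated cells.

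The largest shift of the window was at one of these regions and not at a gene. The region at chr18:37567981-37568581, between the beta and gamma clusters and about 49.9 kb after the start site of *Pcdhb22*, had 2.01 in SB, 2.25 at 1 h, 2.47 at 8 h and 3.42 in untreated cells. It was higher than with SB-431542 by 18.0 points with 1 h Activin, 22.6 with 8 h Activin and 48.9 in untreated cells. The called peak was 448 to 565 bp wide. A region between the gamma constant exons, at chr18:37831925-37832835, was higher by 21.8 points with 1 h Activin, 29.3 with 8 h Activin and 13.4 in untreated cells. Its levels were 1.94 in SB, 2.25 at 1 h, 2.55 at 8 h and 2.18 in untreated cells. Lower ranks were found as well. A region between *Pcdhga12* and *Pcdhgc3*, at chr18:37786141-37786729, was lower by 27.6 points with 8 h Activin, at 1.92, against 2.49 with SB-431542, and one between the beta and gamma clusters, at chr18:37618670-37619008, by 20.4 points in untreated cells, at 2.39, against 3.10 with SB-431542. Another, in the neighbouring gene *Diaph1* at chr18:37864781-37865160, was lower by 29.7 points in untreated cells, at 2.54, against 3.91 with SB-431542.

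**Figure D4:**
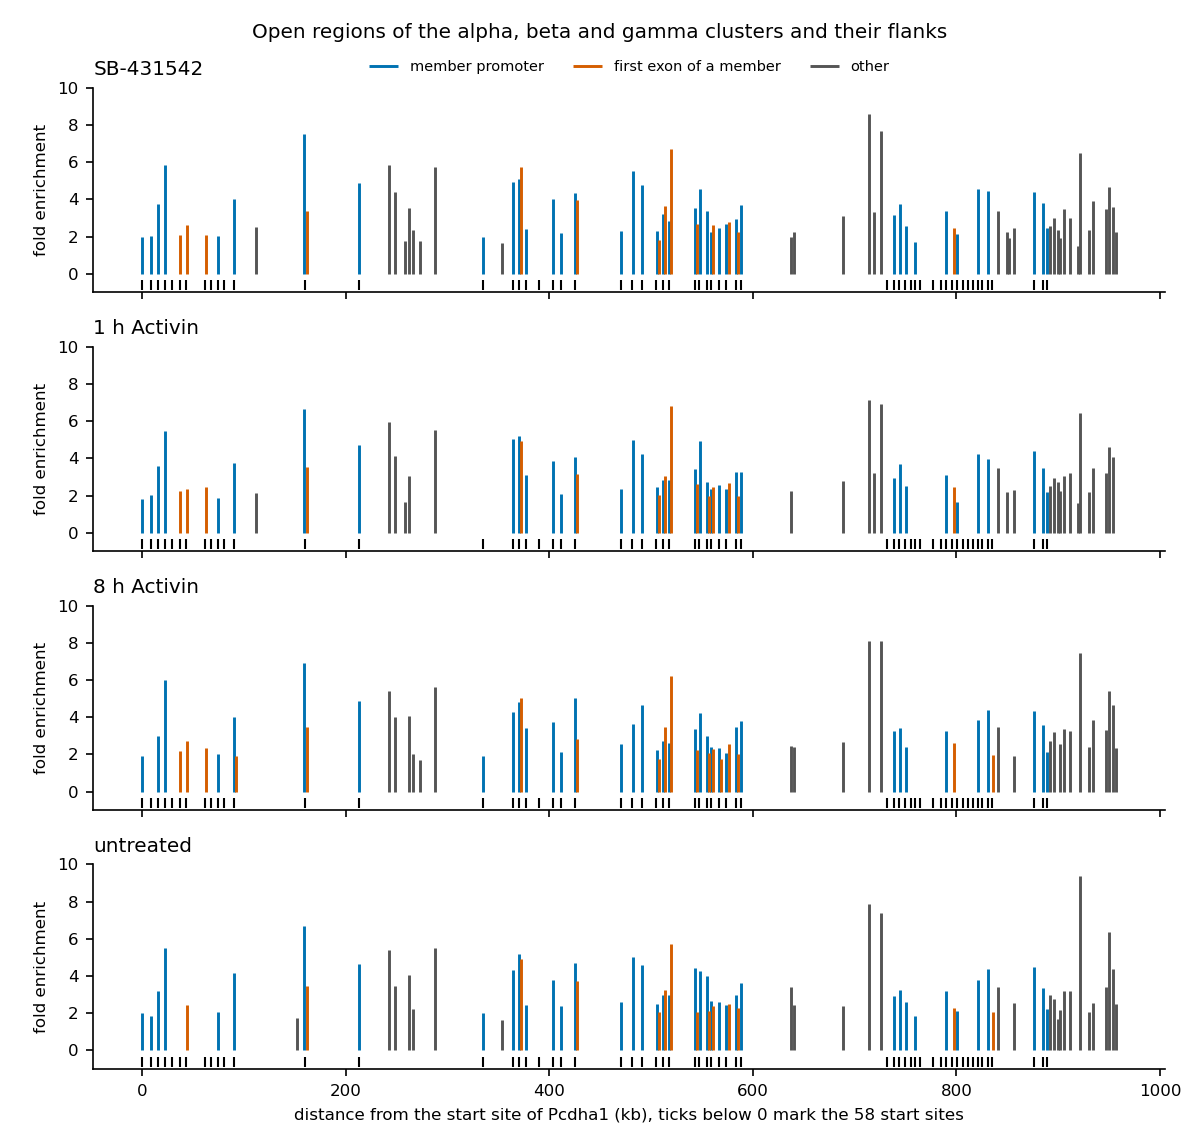
Highest fold enrichment of each open region of the window against the distance of its centre from the start site of *Pcdha1* in kb, with a panel per list and colours for member promoters, first exons of members and other regions. Ticks under each panel mark the 58 start sites. The beta cluster is filled with open promoters and exon sites in every list, the middle of the alpha and gamma clusters is sparse, and tall lines outside the members stand just before the gamma cluster, at 7.13 to 8.61 for the *Taf7* promoter and 6.90 to 8.08 for the region next to it, and past its end, at 6.41 to 9.39 for a region in *Diaph1*.

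How often a region was shared by all lists went with its class. Of the 93 regions of the window, 40 of them member promoters, 69 (74.2%) had a peak in every list, against 56.6% of all regions of the genome, and 5 (5.38%) had a peak in 1 list only, against 18.1%. Among the member promoter regions 36 of 40 (90%) were in every list, against 92.2% of all promoter regions of the genome. Among first-exon regions 12 of 18 were in every list, and among the others 21 of 35 (60%). Of the 87 regions of the SB-431542 list, 8 had no peak with 1 h Activin, 11 none with 8 h Activin and 10 none in untreated cells, against 12.3%, 21.3% and 19.4% of the regions of that list over the genome in the same states. Regions with a peak in the signalling state and none with SB-431542 numbered 1 at 1 h, 4 at 8 h and 4 in untreated cells, against 9.48%, 8.12% and 10.6% of all regions in these states. The 4 of 8 h Activin were all in first exons, of *Pcdha12*, *Pcdhb17*, *Pcdhb19* and *Pcdhga12*. A peak in the SB-431542 and 1 h Activin lists alone was found for 6 regions, none of them a promoter or first exon of a member, against 6.5% of all regions.

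The density of peaks over the window was close to that of the genome. In peaks per 100 kb it was 8.70 in SB, 8.01 at 1 h, 7.91 at 8 h and 8.11 in untreated cells, against 8.61 in SB, 8.56 at 1 h, 7.68 at 8 h and 8.07 in untreated cells. It was 12.5 in SB, 12.1 at 1 h, 12.5 at 8 h and 12.9 in untreated cells in the beta cluster, 12.2 in SB, 11.1 at 1 h, 9.99 at 8 h and 11.7 in untreated cells in the gamma cluster and 6.19 in SB, 6.19 at 1 h, 5.41 at 8 h and 5.03 in untreated cells in the alpha cluster, where long gaps lie before *Pcdhac1* and *Pcdhac2*. Of the other genes with a start site in the window, *Taf7*, which encodes a subunit of the general transcription factor TFIID and lies between the beta and gamma clusters, had one of the strongest promoters, at 8.61 in SB, 7.13 at 1 h, 8.09 at 8 h and 7.86 in untreated cells. The peak of *Gm37013* is that of *Pcdha4*, with which it shares its promoter. *Slc25a2*, a mitochondrial ornithine carrier next to *Taf7*, and *Gm38666*, *Gm38667*, *Gm6756* and *Mir6979* had no promoter peak in any list.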

How the data were processed

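ATAC-seq was done by the authors on P19 cells in 4 states, with 100000 cells per reaction. The labels list 48 libraries, 12 per state, while the methods of the study describe sequencing 1 sample per state and biological replicate, and how these relate is not known. Per the submitters' processing notes the tools were cutadapt 1.9.1, BWA 0.6.2, Picard, bedtools 2.26.0 and MACS2 2.1.1.20160309. Reads were aligned to mm10, the replicates of a state were merged, and broad peaks were called without a control library, so that copy number or mappability of a region is not corrected by an input. The deposited fold enrichment is a ratio of mean pileup to local background, and the authors' -log10 p and its -log10 q come from a Poisson test against that background. They rank peaks within a list and say nothing of a difference between lists. The authors' lists hold no read counts, so depth was compared through the lowest local background, solved from the fold enrichment and the -log10 p of each peak.

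Start sites were those of 45756 curated RefSeq transcripts. Peaks of the 4 lists that overlapped by at least 1 bp were merged into regions. Levels are the highest fold enrichment in the promoter window or region. Nearly identical sequence among members can lose reads that map ambiguously, and the share lost was not measured. Motifs were searched in the mm10 genome, and no sequence of these loci is printed. The text names members open in some lists only, the C-type genes, the highest and lowest members per cluster and list, members that shifted by more than 10 points, the 3 largest shifts per direction and state in the window, and other genes of the window. Other members and regions named were chosen after their values were seen. The members, lists and alternatives were chosen with earlier results of these data known. Alternatives were other promoter windows, a -log10 q of at least 5, lists of equal length, merging within 200 bp, a width-weighted mean, ranks by -log10 q or estimated pileup, a cover of at least 50% and the clusters without flanks. The scripts were tested on simulated peaks. Python 3.11.15, numpy 2.4.6, pandas 2.3.3 and scipy 1.17.1 were used.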

Additional observations from a re-analysis of the deposited data

How the results depend on the processing

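With 1 merged list per state, differences between states have no error, and the called width of a peak enters its fold enrichment. No paired analysis was possible because the 2 biological replicates of each state are merged in the lists. The number of members with a promoter peak stayed within 1.5 times of the main count in every list when the start site itself had to lie in a peak, with 500 bp to each side, with a -log10 q of at least 5 and with lists of equal length. In these settings the count of alpha members alone moved further in 2 cases. It went from 7 to 11 with 1 h Activin and 500 bp to each side. In untreated cells it went from 8 to 5 with a -log10 q of at least 5. The number over all members changed where the centre of the peak had to lie in the window, to 17 with SB-431542, 15 with 1 h Activin, 12 at 8 h and 15 without treatment. At the stricter q, 32 members were in all lists, 6 in some and 20 in none. Of the shared regions of the window, 7 were higher and 2 lower with 1 h Activin, 7 higher and 10 lower with 8 h Activin, and 11 higher and 5 lower in untreated cells. Ranked by estimated mean pileup, 4 were higher at 1 h, 3 at 8 h and 6 in untreated cells, and 0 and 4 lower with 1 h and 8 h Activin. Ranked by -log10 q, 1 was lower with 1 h Activin, 4 were higher at 8 h and 7 in the untreated state. In that state 8 were lower at the stricter q and 3 without the flanks. Regions with a peak with 8 h Activin and none with SB-431542 numbered 4, and 0 at the stricter q. The cause of these changes was not tested. None of the 15 member shifts of more than 10 points reversed, and 7 fell under 10 points under at least 1 alternative. Those of *Pcdhb4* lay between 14.3 and 40.0 points over the alternatives, that of *Pcdhb20* between -24.6 and -18.6, and that of *Pcdhb15* in untreated cells between 11.1 and 25.5, while those of *Pcdha3*, *Pcdhb10*, *Pcdhb13* and *Pcdhgc5* with 8 h Activin came as near to 0 as -9.84, -1.83, -8.07 and -6.42 points, that of *Pcdhb9* with 8 h Activin 9.14, that of *Pcdhb12* with 1 h Activin 8.93 and that of *Pcdhb17* in untreated cells 9.98 points. For *Pcdhb20* the range leaves out the stricter q. Its 8 h Activin peak had a -log10 q of 4.39, so the region was then no longer in all lists.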

Other observations

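Genes that act on the clusters or with their products were also described. All 20 genes listed as regulators of the clusters had a promoter peak in every list. So did 65.2% of all RefSeq genes and 71.2% of coding genes. With SB-431542 the median fold enrichment of the regulators was 4.01, against 4.45 for all open RefSeq promoters. *Ctcf* had fold enrichments of 3.85 in SB, 3.70 at 1 h, 3.67 at 8 h and 3.64 in untreated cells, and the cohesin genes *Rad21*, *Smc1a* and *Smc3* had 4.74, 5.20 and 5.67 with SB-431542. *Smchd1*, which encodes a chromatin protein involved in silencing clustered genes, had 5.48 in SB, 5.35 at 1 h, 5.09 at 8 h and 4.75 in untreated cells. *Tet3*, which encodes an enzyme that oxidises methylated cytosine, had 3.38 in SB, 3.24 at 1 h, 4.53 at 8 h and 4.28 in untreated cells. The DNA methyltransferase genes *Dnmt3a* and *Dnmt3b* were close to constant, at 2.51 in SB, 2.40 at 1 h, 2.38 at 8 h and 2.36 in untreated cells and at 3.44 in SB, 3.20 at 1 h, 3.27 at 8 h and 3.34 in untreated cells.

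All 13 genes listed as partners downstream of clustered protocadherins had a promoter peak in every list too, with a median of 5.09 in SB, 4.92 at 1 h, 4.85 at 8 h and 4.71 in untreated cells, above the 3.29 in SB, 3.24 at 1 h, 3.40 at 8 h and 3.08 in untreated cells of the open clustered protocadherins. A peak in every list was found at 65.2% of all RefSeq genes. The median of all open RefSeq promoters was 4.45 in SB, 4.29 at 1 h, 4.24 at 8 h and 4.13 in untreated cells. The partners include *Ptk2* and *Ptk2b*, which encode the focal adhesion kinases FAK and PYK2, and members of the WAVE complex that governs actin branching. Of that complex, *Wasf3* had the highest level, at 6.95 in SB, 7.18 at 1 h, 7.23 at 8 h and 6.96 in untreated cells. Among the non-clustered protocadherins, *Pcdh20* was highest, at 5.04 in SB, 4.89 at 1 h, 5.39 at 8 h and 4.44 in untreated cells, and *Pcdh12* or *Pcdh1* lowest, at 1.81 in SB, 1.98 at 1 h, 2.03 at 8 h and 2.09 in untreated cells for *Pcdh12* and 2.37 in SB, 1.92 at 1 h, 1.86 at 8 h and 1.86 in untreated cells for *Pcdh1*. *Pcdh15* had 3.00 with 1 h Activin, 4.10 with 8 h Activin and 4.11 in untreated cells, against 4.23 with SB-431542. These values have no replicates.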
